A study of Mus musculus with 12 samples.

Results

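Short bivalent regions are stretches of chromatin under 10 kb long where peaks of H3K27me3 and H3K4me3 met in lineage-depleted, cKit-positive bone marrow cells of wild-type mice. H3K27me3 peaks of the WT libraries on the 19 autosomes were merged where they overlapped or touched. An interval was taken when both WT libraries touched it, when it was shorter than 10000 bp, and when it overlapped by at least 1 bp an H3K4me3 peak in each WT H3K4me3 list. Of 12041 merged intervals, 7286 were touched by both WT libraries, and 2767 of these were short bivalent regions. The others were 3595 short regions without H3K4me3 in either WT list, 461 short regions with it in 1 WT list, and 463 regions of 10 kb or longer. The choice rested on the WT lists of both marks, so the WT values of these regions, and any comparison of either mark between KO and WT within them, are a description with no test.

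The study set Ints11 conditional knockout mice (KO_399 and KO_401; Mx1Cre+ with floxed alleles of Ints11, the catalytic subunit of the RNA-cleaving Integrator complex) against WT littermates (WT_407 and WT_409), all C57BL/6. Poly(I:C) was injected, and cells were sorted 4 days later; the sources used here do not say whether the WT mice carried Mx1Cre or a floxed allele. The Mx1 promoter answers to interferon, which poly(I:C) induces, and is not restricted to blood cells. Each mouse gave a library of H3K27me3 and a library of H3K4me3, so there were 2 mice per genotype for each mark, and the numbers in the labels were read as mice. H3K27me3 peaks numbered 6505 in KO_399 and 7559 in KO_401, against 11748 in WT_407 and 9673 in WT_409, on these chromosomes. H3K4me3 peaks numbered 24409 to 26922 in KO and 24455 to 25575 in WT. Read totals were not part of the peak lists. The background that the peak caller used, recovered from the deposited values, was 3.30 and 3.67 reads per position in KO and 3.09 and 3.15 in WT for H3K27me3. For H3K4me3 it was 2.65 and 1.93 in KO and 2.23 and 1.94 in WT, with KO_399 the highest. Every list had only peaks with a fold over 5, so a region without a listed peak may have had a weaker one.

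H3K27me3 is deposited by Polycomb repressive complex 2 and marks genes held silent, whereas H3K4me3 is deposited by COMPASS-type methyltransferases at the starts of active or poised genes. Promoters that carry both are called bivalent, are mostly rich in CpG dinucleotides, and in stem and progenitor cells include many regulators of other lineages. The marks were read in bulk chromatin. A region with both may carry them on the same nucleosomes, on the 2 alleles or in different cells, and fewer marked cells and less mark per cell cannot be told apart.

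As a check of the cell type, H3K4me3 peaks were sought within 2 kb of the gene ends, and all 11 progenitor markers, among them Kit, Cd34, Runx1 and Mpo, had one in each of the 4 libraries. Of 8 markers of mature lineages, 4 in KO_399, 3 in KO_401, 3 in WT_407 and 4 in WT_409 had one. Cd3e, Cd8a, Ms4a1 and Klrb1c had none in any library, while Itgam and Ly6g had one in all. Of 4 markers of non-blood cells, Pdgfrb, Cxcl12 and Col1a1 had H3K4me3 in all 4 libraries and Cdh5 in all but WT_409.

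The DNA of 5 such regions shows what these sites look like. Each sequence is the 250 bases before the RefSeq start site that lies inside the region (GRCm38.p6, the coordinates of mm10), read 5′ to 3′ on the strand of the gene, with every CG dinucleotide in capitals. Ajuba (a LIM-domain scaffold protein, minus strand, chr14:54577662-54577911) and Tmem121b (a transmembrane protein, minus strand, chr6:120493947-120494196) stand for the strongest WT H3K27me3. Zfp982 (a zinc finger gene, plus strand, chr4:147442864-147443113) and Serpine2 (a secreted serine protease inhibitor, minus strand, chr1:79858666-79858915) stand for regions with no H3K27me3 peak in KO. Phlda3 (a p53 target that restrains Akt, plus strand, chr1:135765835-135766084) stands for longer H3K4me3 in KO.
Ajuba: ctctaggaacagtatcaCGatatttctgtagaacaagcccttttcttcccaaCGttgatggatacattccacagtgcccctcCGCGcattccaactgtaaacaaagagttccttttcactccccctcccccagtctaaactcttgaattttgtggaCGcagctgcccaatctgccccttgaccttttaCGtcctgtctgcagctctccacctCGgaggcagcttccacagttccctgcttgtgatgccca
Tmem121b: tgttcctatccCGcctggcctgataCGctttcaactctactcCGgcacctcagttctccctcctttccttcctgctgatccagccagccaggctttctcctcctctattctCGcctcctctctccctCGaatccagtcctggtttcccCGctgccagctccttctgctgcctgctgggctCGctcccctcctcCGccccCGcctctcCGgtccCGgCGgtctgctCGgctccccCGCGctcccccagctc
Zfp982: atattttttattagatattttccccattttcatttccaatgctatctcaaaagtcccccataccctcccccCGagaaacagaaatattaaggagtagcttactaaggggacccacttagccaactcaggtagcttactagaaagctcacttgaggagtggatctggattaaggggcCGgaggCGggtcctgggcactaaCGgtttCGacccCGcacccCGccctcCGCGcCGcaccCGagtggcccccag
Serpine2: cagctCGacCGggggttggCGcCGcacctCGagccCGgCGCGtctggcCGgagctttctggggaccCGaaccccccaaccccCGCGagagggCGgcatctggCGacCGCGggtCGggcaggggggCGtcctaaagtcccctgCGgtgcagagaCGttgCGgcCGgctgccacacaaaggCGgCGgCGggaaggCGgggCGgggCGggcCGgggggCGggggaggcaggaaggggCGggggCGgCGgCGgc
Phlda3: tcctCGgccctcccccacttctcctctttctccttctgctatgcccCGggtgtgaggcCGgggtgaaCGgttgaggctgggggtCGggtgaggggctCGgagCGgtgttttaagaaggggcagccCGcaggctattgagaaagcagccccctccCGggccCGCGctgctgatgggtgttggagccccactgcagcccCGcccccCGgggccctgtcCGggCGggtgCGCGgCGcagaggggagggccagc
These stretches held 7 CG in Ajuba, 15 in Tmem121b, 11 in Zfp982, 34 in Serpine2 and 18 in Phlda3. Neither a strong nor an absent mark went with a single CG count among them: Serpine2, with no H3K27me3 peak in KO, had the most and Ajuba, with a peak in both KO libraries, the fewest.

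In the RefSeq promoter table, 1693 start sites of 1480 genes lay inside short bivalent regions. Their upstream 250 bases had a median of 17 CG and a GC content of 64.8%, against 11 CG and 60.8% for start sites inside short H3K27me3 regions without H3K4me3 and 10 CG and 56% for all start sites in the table. Start sites under H3K4me3 but not H3K27me3 in both WT libraries also had a median of 17 CG. Within the short bivalent regions the median was 18 CG where both KO libraries had H3K27me3 and 12 CG at 85 start sites where neither had it. The letters GGGCGG, the core of the GC box, read on both strands, were found in 68.0% of the sequences inside short bivalent regions and in 43.4% of all. The letters TATAAA, read likewise, were found in 6.50% and 11.7%. Start sites under H3K4me3 but not H3K27me3 in both WT libraries had GGGCGG in 61.2% and TATAAA in 5.29%. Those inside short H3K27me3 regions without H3K4me3 had them in 52.9% and 4.45%. A low share of TATAAA was thus not particular to short bivalent regions. The promoter table had an entry for 1864 of the 2458 genes with an end within 2 kb of such a region (75.8%), so the base composition of all these genes could not be checked, and the values describe the start sites in the table alone.

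Some short bivalent regions held miRNA genes instead of, or beside, protein-coding starts. MicroRNAs repress mRNAs that pair with their seed, bases 2 to 8 of the mature strand. A hairpin with an entry in the RefSeq miRNA table lay in 22 of the 2767 regions (0.795%), against 14 of 3595 short regions without H3K4me3 (0.389%), 16 of 463 regions of 10 kb or longer (3.46%) and 0.727% of all 7286. The mature strands below, with the seed in capitals, are shown because they share seeds across separate regions: the first 3 have GGCAGUG, the seed of the miR-34 and miR-449 family, and the other 2 have ACUGGCC.
miR-34b-5p: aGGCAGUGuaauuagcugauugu
miR-449a-5p: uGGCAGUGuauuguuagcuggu
miR-449c-5p: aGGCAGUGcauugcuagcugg
miR-193a-3p: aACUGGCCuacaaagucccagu
miR-193b-3p: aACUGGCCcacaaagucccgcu
Of the 22 regions, 20 had H3K27me3 in both KO libraries, 1 in KO_401 only (Mir199b, in a 1906 bp region) and 1 in neither (Mir8109, in a 3042 bp region). Of all 2767 short bivalent regions, 71.0% had it in both and 9.83% in neither, and longer regions had it more often, as given below. The 22 regions were from 1906 to 9084 bp long. The table gives only mature strands for some miRNAs, and 2 further regions held such a strand: that of Mir1903 had H3K27me3 in both KO libraries and that of Mir692-3 in KO_401 only. The Mir34b and Mir34c region on chromosome 9 had H3K27me3 over 4699 and 7034 bp in KO_399 and KO_401, against 7306 and 7142 bp in WT_407 and WT_409. Its H3K4me3 covered 722 bp in KO_399 and 0 bp in KO_401, against 484 and 463 bp in WT_407 and WT_409, so the KO libraries lay on either side of WT. The Mir449a and Mir449c region on chromosome 13 had 5316 and 7044 bp of H3K27me3 in KO_399 and KO_401, against 7845 and 8537 bp in WT_407 and WT_409. At Mir203 on chromosome 12, H3K27me3 covered 1640 and 1817 bp in KO_399 and KO_401 and 4818 and 4199 bp in WT_407 and WT_409, and H3K4me3 covered 1389 and 1320 bp in KO against 1161 and 1209 bp in WT.

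The 2767 regions ranged in length from 526 bp to 9980 bp, with quartiles of 2571 and 5473 bp and a median of 3883 bp, and spanned 11.5 Mb. The shortest lay at H2-Q4, a class I histocompatibility gene, which H3K4me3 covered over its whole 526 bp in each library. Just inside the length limit were the regions of Rhpn2 (9980 bp), Mkx (9963 bp) and Rax (9897 bp), and just outside it those of Il11ra2 (10032 bp), Cpeb1 (10040 bp) and Adgrl3 (10050 bp). A protein-coding gene end lay within 2 kb of 2181 short bivalent regions (78.8%), compared with 41.3% of short regions without H3K4me3 and 59.9% of all 7286. A further 335 lay in genes away from their ends, and 251 lay outside genes. Per chromosome, they numbered 10.8 (chromosome 16) to 16.8 (chromosome 4) for every 100 H3K4me3 regions of both WT libraries.

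H3K4me3 sat within the H3K27me3 stretch as a narrower peak. The strongest H3K4me3 peak lay wholly inside the region in 72.0% and 74.6% of regions with one in KO_399 and KO_401, and in 74.8% and 74.4% in WT_407 and WT_409. Where a mouse had both marks, the H3K4me3 summit lay under an H3K27me3 peak of the same mouse in 79.7% and 85.4% of regions in KO_399 and KO_401, against 84.5% and 87.8% in WT_407 and WT_409. The median distance between the summits of the marks was 448 and 429 bp in KO and 470 and 440 bp in WT. The distance thus did not separate the genotypes, although the share of H3K4me3 summits under H3K27me3 was lowest in KO_399.

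H3K27me3 covered fewer bases of these regions in both KO mice than in both WT mice. The mean covered length per region was 1880 bp in KO_399 and 2939 bp in KO_401, against 3723 bp in WT_407 and 3882 bp in WT_409. KO_399 was the lowest, and KO_401 lay closer to WT than to KO_399. The means were 2410 ± 749 bp in KO and 3802 ± 113 bp in WT (SD, n = 2 each), or 63.4% of WT. On the same chromosomes the whole H3K27me3 lists covered 15.1 and 23.0 Mb in KO_399 and KO_401, against 34.2 and 31.2 Mb in WT_407 and WT_409. Lower coverage in KO was thus not limited to the short bivalent regions. An H3K27me3 peak was present in 72.1% of the regions in KO_399 and in 89.0% in KO_401 (mean 80.6 ± 11.9%, SD, n = 2), and by the rule in 100% in each WT library. Both KO libraries covered fewer bases than either WT library in 2216 regions (80.1%), beside 84.4% of all 7286, and more in 0, as in all 7286. The regions were bounded by WT peaks, and KO bases outside them were not counted. More covered bases in KO could therefore hardly occur, in these or in all 7286, and nothing is drawn from the 0. Both KO libraries had a peak in 1964 regions (71.0%), beside 60.1% of all 7286, and neither had one in 272 (9.83%), beside 20.1%. A further 499 had a peak in KO_401 only and 32 in KO_399 only. Without KO_399 the difference in mean covered length was -863 bp in place of -1393 bp. Leaving out a WT mouse changed the regions: 697 of 3446 had no peak in KO without WT_407, and 449 of 3447 without WT_409. Over the 2767 regions, 304 had no peak in KO_401 alone and 771 had none in KO_399 alone. With equal covered length in each list, 1 of 704 regions had no peak in KO, and with equal numbers of peaks 108 of 2298.

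The H3K4me3 ranges of KO and WT overlapped. The mean covered length per region was 1335 bp in KO_399 and 1052 bp in KO_401, against 1196 bp in WT_407 and 1120 bp in WT_409, so the KO mice held both the highest and the lowest value. The difference of KO minus WT was 35.8 bp with 2 mice each. It was -106 bp without KO_399 and -25.6 bp without WT_409. KO_399 also had the highest background of the H3K4me3 libraries, and its part in this value was not tested. A peak was present in 99.1% of regions in KO_399 and 95.6% in KO_401. H3K4me3 was absent from both KO libraries in 17 regions (0.614%), beside 1.44% of all H3K4me3 regions of both WT libraries. Both marks were present in both KO libraries in 1865 regions (67.4%). In 262 regions (9.47%) both KO libraries had H3K4me3 and neither had H3K27me3, and 1 region had neither mark in either KO library. The 262 are part of the 272 with no H3K27me3 peak in KO (9.83%, beside 20.1% of all 7286 H3K27me3 regions).

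**Figure D1:**
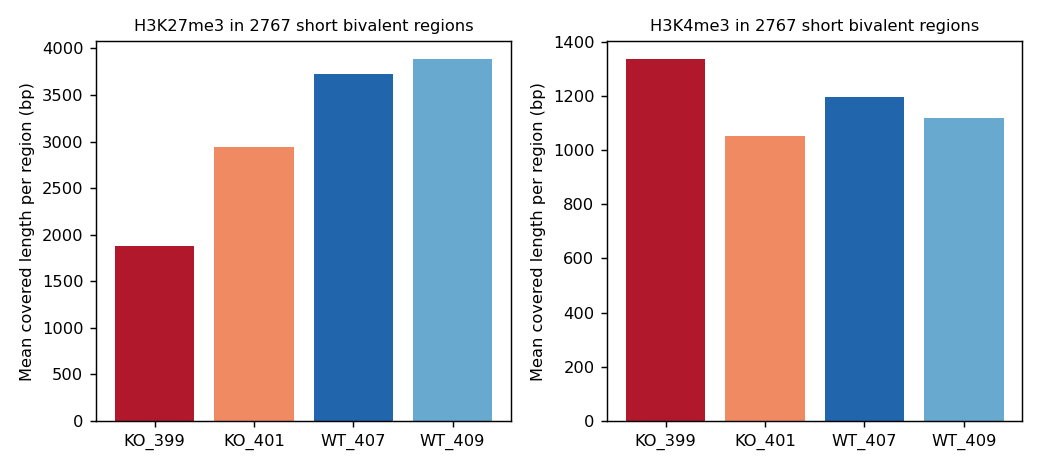
Mean covered length per region in bp, for H3K27me3 (left) and H3K4me3 (right), over the 2767 short bivalent regions, with 1 bar for each mouse. H3K27me3 was at 1880 and 2939 bp in KO_399 and KO_401 and at 3723 and 3882 bp in WT_407 and WT_409, while for H3K4me3 KO_399 (1335 bp) was the highest and KO_401 (1052 bp) the lowest.

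Because the WT lists chose the regions, the choice was repeated on 1 WT mouse, leaving the other WT mouse as a value that the choice did not use. With 3447 regions chosen on WT_407, an H3K27me3 peak was present in 69.5% in KO_399 and 85.9% in KO_401, against 95.2% in WT_409. With 3446 regions chosen on WT_409, it was present in 62.5% in KO_399 and 78.6% in KO_401, against 86.1% in WT_407. Both KO values were lower than the held-out WT value each time, with a mean difference of -16.5 percentage points (-24.6 in KO_399 and -8.36 in KO_401). With 3 libraries left the exact permutation test cannot go below 0.333. The sign depended on the lists: when the lists of each mark were reduced to the same covered length by their strongest peaks, KO minus the held-out WT mouse was 17.7 percentage points. With equal numbers of peaks in each list it was -7.82 points. Equal length cut the WT H3K27me3 lists most, as they covered 34.2 and 31.2 Mb against 15.1 and 23.0 Mb in KO. The part of this cut in the positive sign was not tested. The short regions without H3K4me3 had larger differences under the same choice, -27.9 points when chosen on WT_407 and -38.2 when chosen on WT_409, against -17.5 and -15.5 for the bivalent regions. H3K4me3, chosen on WT_407, was present in 96.6% and 88.9% in KO_399 and KO_401 and in 88.5% in WT_409. Chosen on WT_409, it was present in 97.9% and 92.9% in KO_399 and KO_401 and in 96.2% in WT_407.

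The same rule applied to the KO lists found 2215 regions. In these, H3K27me3 covered 2785 bp in KO_399 and 3784 bp in KO_401, against 3722 bp in WT_407 and 3759 bp in WT_409. Chosen this way, KO_399 was lower than both WT mice and KO_401 slightly higher than both. An H3K27me3 peak was present in 99.7% of them in WT_407 and 99.8% in WT_409. The WT lists were larger, at 34.2 and 31.2 Mb in WT_407 and WT_409 against 15.1 and 23.0 Mb in KO_399 and KO_401. A high share in WT was therefore likely from the start. No share over other KO regions was taken, so these values do not set sites with both marks apart.

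Around the start site, H3K27me3 had the same centre in KO and WT but a lower and narrower profile in KO. The 1444 short bivalent regions with a RefSeq start site inside were aligned on it. One kb upstream, an H3K27me3 peak covered the position in 36.1% of them in KO_399 and 59.97% in KO_401, against 69.5% in WT_407 and 77.1% in WT_409. One kb downstream, the shares were 61.4% and 80.8% in KO and 87.3% and 90.2% in WT, so in each library the mark reached further into the gene than in front of it. H3K4me3 leaned the same way, with 40.7% and 26.5% in KO and 30.7% and 28.6% in WT at 1 kb downstream, and 11.9% and 9.35% in KO and 10.7% and 10.7% in WT at 1 kb upstream. KO_399 had the widest H3K4me3 downstream and KO_401 the narrowest.

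**Figure D2:**
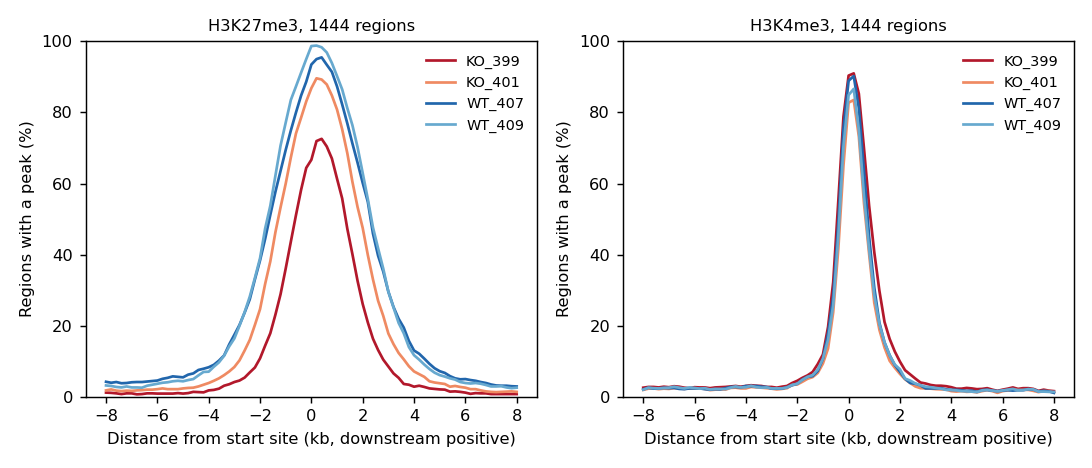
Share of the 1444 regions (%) in which a peak covers a position, by distance from the start site in kb, for H3K27me3 (left) and H3K4me3 (right), 1 line for each mouse. At 1 kb downstream H3K27me3 is at 61.4% in KO_399 and 80.8% in KO_401, against 87.3% and 90.2% in WT_407 and WT_409, while the H3K4me3 lines of KO_401 and the WT mice lie close together.

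Whether H3K27me3 was present in KO followed the length of the region. Below 1 kb, 7.32% of 41 regions had a peak in KO_399 and 17.1% in KO_401. From 1 to 2 kb (372 regions) the shares were 21.0% and 57.8%, from 2 to 4 kb (1025 regions) 62.6% and 90.0%, from 4 to 6 kb (812 regions) 94.3% and 99.0%, and from 6 to 10 kb (517 regions) 98.1% and 99.6%. Short regions without H3K4me3 climbed likewise, from 1.52% and 13.7% below 1 kb to 92.7% and 97.3% from 6 to 10 kb. The 272 short bivalent regions without a peak in either KO library had a median length of 1623.5 bp, against 4660.5 bp for the 1964 with a peak in both. Their strongest WT H3K27me3 peak stood at a median percentile of 35.4 in its list by −log10 q, against 80.8. Their H3K4me3 stood at 59.1, against 46.0. The regions without H3K27me3 in KO were thus shorter, weaker in H3K27me3 and stronger in H3K4me3 in WT. Length, peak strength and closeness to the fold limit of the lists go together here, and their separate parts cannot be told apart.

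By WT H3K4me3 strength, the strongest of 4 classes stood lowest in both KO mice. From the weakest class to the strongest, the share with an H3K27me3 peak was 82.2%, 81.4%, 73.6% and 51.4% in KO_399 and 92.5%, 91.9%, 92.3% and 79.3% in KO_401. KO_401 was thus nearly level over the first 3 classes. The share with no peak in either KO library was 6.66%, 7.37%, 6.79% and 18.5%. The regions of the strongest class were also shorter, at a median of 2960.5 bp against 4448 bp in the weakest class, and had weaker H3K27me3 in WT, at a median percentile of 60.8 against 78.7. By position, a peak was present in 75.3% and 91.0% (KO_399 and KO_401) of regions near gene ends, in 65.7% and 84.5% of those in genes away from the ends, and in 53.4% and 78.1% of those outside genes, with median lengths of 4138, 3110 and 3068 bp.

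Compared with short H3K27me3 regions that had no H3K4me3 in WT, the bivalent ones more often had an H3K27me3 peak in KO, but not at equal WT strength. A peak was present in 72.1% (KO_399) and 89.0% (KO_401) of bivalent regions and in 46.2% and 66.0% of the 3595 others, a difference of 26.0 and 23.1 percentage points (mean 24.5, SD 2.05, n = 2). Within bins of length the difference was 13.2 and 12.7 points. Within 10 equal classes of WT peak strength, a comparison added after the data were seen, it was -2.72 in KO_399 and 1.52 in KO_401, on either side of 0. In the weakest of 4 strength classes, 6.69% and 41.4% of bivalent regions had a peak in KO_399 and KO_401, against 4.70% and 22.9% of regions without H3K4me3. In the strongest, the shares were 98.9% and 99.8%, against 99.8% and 100%. Without WT_409 the unmatched difference was 45.8 points, and it was 7.90 points with peaks of fold 7 or more and 0.493 points with equal covered length in each list. Regions of 1 library are not replicates, so no test was made across them.

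**Figure D3:**
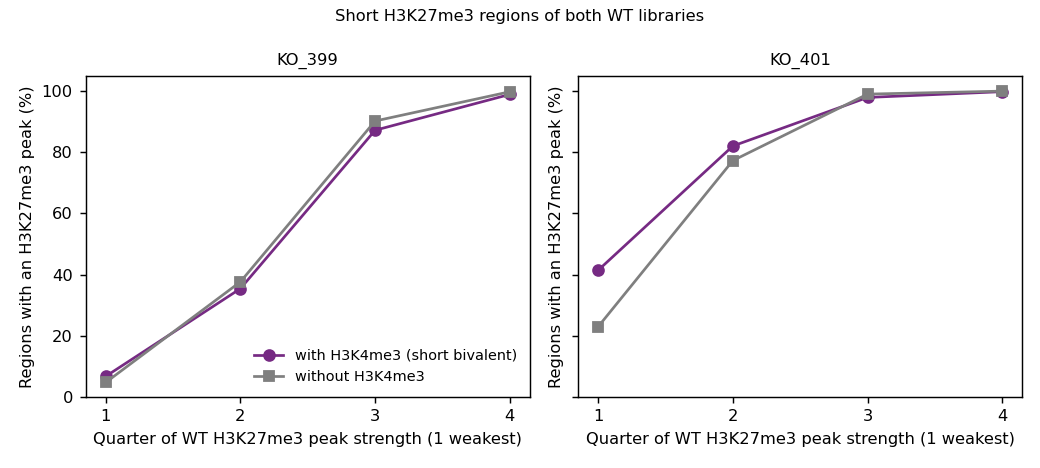
Share of short regions (%) with an H3K27me3 peak in KO_399 (left) and KO_401 (right), in 4 classes of WT H3K27me3 peak strength from the weakest (1) to the strongest (4), for bivalent regions (circles) and regions without H3K4me3 (squares). Both curves climb together, from 6.69% and 4.70% to 98.9% and 99.8% in KO_399, and they part most in the weakest class of KO_401, at 41.4% and 22.9%.

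Short bivalent regions were found at a larger share of the listed signalling and axon guidance genes than of the listed homeobox and Hox genes. Of all 20665 protein-coding genes on these chromosomes, 2458 (11.9%) had one within 2 kb of an end. Among 65 axon guidance and Eph/ephrin genes 32 had one, as did 38 of 96 genes of the Wnt, Fgf, Bmp, Hedgehog and Notch pathways, 17 of 49 collagen and basement membrane genes and 36 of 146 ion channel and neurotransmitter receptor genes. By contrast, 6 of 106 homeobox genes outside the Hox clusters and 4 of 39 Hox genes had one, while 80 and 33 of them had an H3K27me3 region of 10 kb or longer. None of 26 ubiquitously expressed genes and 1 of 26 interferon-stimulated genes (Dhx58, a viral RNA sensor) had one. Among genes with any H3K27me3 region, 53.3% of all genes had a short bivalent one. That share was 61.5% for axon guidance, 42.2% for signalling, 44.7% for collagen and 29.8% for channel and receptor genes. It was 5.71% for the homeobox and 10.8% for the Hox genes. Of these lists, only axon guidance lay above all genes once H3K27me3 was required. These are counts over lists and were not tested.

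Among signalling genes, 39 regions were near the 38 pathway genes: 34 had H3K27me3 in both KO libraries, 2 in KO_401 only and 3 in neither. Of all 2181 regions near gene ends, 74.2% had the mark in both and 7.98% in neither. The 39 regions were also longer, with a median of 6054 bp against 4138 bp for all near gene ends. The part of length in their higher share was not tested. Of the ligands, Bmp2 had H3K27me3 over 5666 and 6228 bp in KO_399 and KO_401, against 7245 and 7582 bp in WT_407 and WT_409. Wnt6 had 2344 and 2970 bp in KO, against 5413 and 4452 bp in WT. KO and WT did not overlap at either gene. Of the receptors, Notch3 had 5313 and 6612 bp in KO against 7469 and 7838 bp in WT, and the Frizzled receptor Fzd5 had 0 and 2735 bp in KO against 2828 and 3486 bp in WT. Of the Notch ligands, Jag1 had 3697 and 3861 bp in KO and 5278 and 4816 bp in WT, and Dll4 had 7148 and 7402 bp in KO and 7969 and 9067 bp in WT. No KO library had H3K27me3 in the regions of Lefty1 (609 and 1265 bp in WT), an inhibitor of Nodal, or Notch4 (929 and 1336 bp in WT). The activin-binding protein Fst had 2 regions: in the one of 2904 bp, neither KO library had H3K27me3, against 2904 and 2693 bp in WT, and in the one of 5597 bp KO had 3481 and 4095 bp, against 4873 and 5597 bp in WT. Short and long regions of the same gene thus differed.

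Of the axon guidance genes, 31 of 34 regions had H3K27me3 in both KO libraries, 2 in KO_401 only and 1, that of the semaphorin Sema6b, in neither. Of all 2181 regions near gene ends, 74.2% had the mark in both and 7.98% in neither. Sema6b had 2543 and 2324 bp in WT, and its H3K4me3 covered 2543 and 2482 bp in KO and 2452 and 2281 bp in WT, nearly the whole region of 2543 bp. At Epha7, an ephrin receptor, H3K27me3 covered 0 bp in KO_399 and 5634 bp in KO_401, against 5499 and 6029 bp in WT, so the KO mice differed from each other more than KO_401 from WT. Of 41 ion channel and receptor regions, 35 had the mark in both KO libraries, 4 in KO_401 only and 2 in neither, among them that of the serotonin receptor Htr2a. Of 16 collagen and basement membrane regions, 14 had it in both, 1 (Lamb2) in KO_401 only and 1 (Lama4) in neither. Median lengths were 4970 bp for axon guidance, 5414 bp for channel and receptor and 4239.5 bp for collagen regions, against 4138 bp for all near gene ends. The shared start of Col4a1 and Col4a2, chains of collagen IV, had 3803 and 4273 bp of H3K27me3 in KO and 5871 and 5419 bp in WT.

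Of the developmental transcription factors with a short bivalent region, all 9 regions of neural and mesodermal bHLH factors and 10 of 11 forkhead, Sox, T-box and Pax regions had H3K27me3 in both KO libraries, beside 74.2% of all regions near gene ends. These were also long, with medians of 6609 and 6215 bp against 4138 bp for all regions near gene ends, and 98.1% and 99.6% of short bivalent regions from 6 to 10 kb had a peak in KO_399 and KO_401. Hes5, a Notch effector, had 937 and 2444 bp in KO against 4260 and 4017 bp in WT, and Foxd4 had 2332 and 6579 bp in KO against 9751 and 8728 bp in WT. The shared region of Hoxb2 and Hoxb3 had 4722 and 7855 bp in KO and 8322 and 8709 bp in WT, and the short region at Hoxa4 had 0 and 798 bp in KO and 1541 and 1941 bp in WT. In these examples KO_399 was the lowest library each time.

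Blood regulators were among them as well. Of 7 regions near stem and progenitor regulators, 6 had H3K27me3 in both KO libraries and 1, Gfi1b, in KO_401 only. Tal1, a master factor of blood formation, had 2287 and 4991 bp in KO_399 and KO_401 and 7518 and 9658 bp in WT_407 and WT_409. Its H3K4me3 covered 5665 and 4771 bp in KO and 4161 and 5126 bp in WT, within overlapping ranges. Hlf, a stem cell factor, had 525 and 1297 bp of H3K27me3 in KO and 2276 and 2772 bp in WT, with H3K4me3 at 2262 and 2257 bp in KO and 2140 and 2128 bp in WT. Bcl11a, from the same list, had 551 and 2890 bp of H3K27me3 in KO and 2967 and 2628 bp in WT, with overlap between the groups. The receptor Flt3 had 2702 and 3480 bp in KO and 4115 and 4082 bp in WT. All 6 regions of the granulocyte and monocyte list, near Egr1, Egr2, Irf4, Irf8 and Klf4, had H3K27me3 in both KO libraries. So did all 6 of the T and NK lymphoid list, near Cd4, Eomes, Id2, Tbx21 and Tcf7. Beside these counts, 74.2% of all 2181 regions near gene ends had the mark in both. Median lengths were 4461 bp (stem and progenitor), 3992 bp (granulocyte and monocyte) and 6323.5 bp (T and NK), against 4138 bp for all near gene ends.

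Some H3K4me3 values of lineage genes followed single mice and not the genotype. At Ebf1, a B cell factor, H3K4me3 covered 4047 and 1521 bp in KO_399 and KO_401 and 302 and 4539 bp in WT_407 and WT_409. At Irf4, H3K4me3 covered 2164 and 1433 bp in KO and 541 and 2027 bp in WT, and at Gfi1b 1606 and 1316 bp in KO and 574 and 2028 bp in WT, with WT_407 the lowest at both. The part of the cell make-up of each sample in these values was not tested.

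Among cell cycle inhibitors, p53 targets and apoptosis genes, 4 of 8 regions had H3K27me3 in both KO libraries and the other 4 in KO_401 only, beside 74.2% and 16.7% of all 2181 regions near gene ends. Cdkn1a, which encodes the cyclin-dependent kinase inhibitor p21, had 0 and 1886 bp in KO_399 and KO_401, against 2322 and 2760 bp in WT_407 and WT_409. Bcl2l11 (Bim, a trigger of apoptosis) had 0 and 2829 bp in KO against 2754 and 3351 bp in WT, so KO_401 lay within the WT range. Zmat3 had 0 and 2966 bp in KO against 2915 and 3843 bp in WT, and Pmaip1 (Noxa) had 0 and 530 bp in KO against 2120 and 3689 bp in WT. H3K4me3 at Cdkn1a covered 2760 and 1747 bp in KO and 1723 and 1730 bp in WT, so KO_401 was barely above WT. At Phlda3 it covered 2664 and 2095 bp in KO, well above the 946 and 923 bp in WT. Of the 8 regions, 3 (Cdkn1a, Phlda3 and Zmat3) had longer H3K4me3 in both KO libraries than in either WT library, beside 12.3% of all H3K27me3 regions that held H3K4me3 in both WT libraries, and none had fewer, beside 6.78%.

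Genes of the Polycomb system itself were near 10 short bivalent regions, of 32 such genes measured. Of these regions, 7 had H3K27me3 in both KO libraries, 2 (Phc1 and Phc2) in KO_401 only and 1 (Rybp) in KO_399 only, beside 74.2% in both for all regions near gene ends. Pcgf1, a subunit of a variant Polycomb complex 1, had 720 and 1486 bp in KO_399 and KO_401 and 4709 and 4509 bp in WT_407 and WT_409. Kdm6b, an H3K27 demethylase, had 855 and 1790 bp in KO and 3505 and 2783 bp in WT. Epop, a protein bound to Polycomb complex 2, had 5973 and 8908 bp in KO and 9194 and 9220 bp in WT, and Bmi1 had 2942 and 4171 bp in KO and 4113 and 4681 bp in WT. KO and WT overlapped at Bmi1 and were apart at the other named genes of this list with H3K27me3 in both KO libraries.

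**Figure D4:**
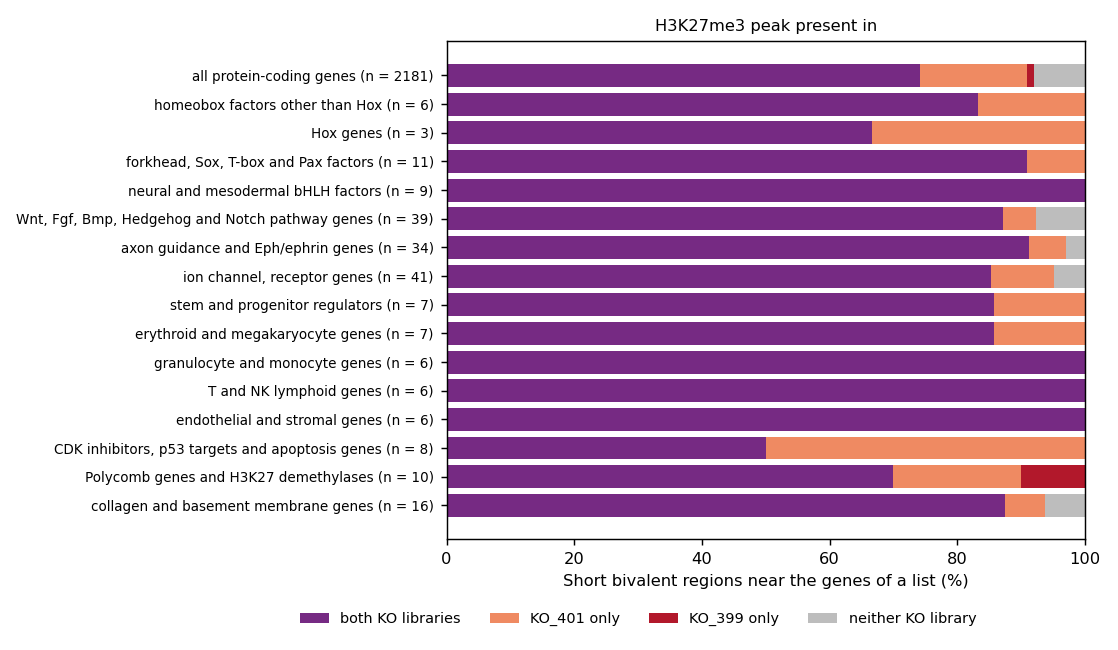
Short bivalent regions within 2 kb of an end of the genes of each list (%), by the KO libraries with an H3K27me3 peak: both, KO_401 only, KO_399 only or neither, with the number of regions beside each list and lists of fewer than 3 regions left out. For all protein-coding genes 74.2% of 2181 regions had a peak in both and 7.98% in neither, and 4 of 8 regions near cell cycle inhibitors, p53 targets and apoptosis genes had one in KO_401 only.

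The 10 regions near gene ends with the strongest WT H3K27me3 peaks included those of Ajuba, Nfatc1, Tmem121b, C1qtnf4, Epop, Ovol2, Wnk2, Fgf11 and Comp, and all 10 had the mark in both KO libraries. They stood at percentiles from 99.3 to 99.8 of the WT lists. Tmem121b, whose CG-bearing promoter is printed above, had H3K27me3 over 3756 and 4702 bp in KO_399 and KO_401, against 5102 and 5075 bp in WT_407 and WT_409. Ajuba had 3162 and 3516 bp in KO and 6061 and 4192 bp in WT. Ovol2, an epithelial transcription factor, had 5792 and 7467 bp in KO and 8757 and 8413 bp in WT. C1qtnf4, a secreted C1q-related protein, had 8401 and 7997 bp in KO and 8892 and 8778 bp in WT, and here KO_401 was the lowest. At Nfatc1, a calcineurin-regulated transcription factor, KO had 3667 and 6937 bp and WT 7598 and 7605 bp.

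Of the regions near gene ends, the 10 strongest with no H3K27me3 peak in either KO library were those of Acvr2a, Zfp982, Serpine2, Cuedc1, Golph3, Thbs3, Lgalsl, Bmyc, Plcb1 and Paqr6, at WT percentiles from 54.4 to 66.7. Acvr2a, an activin receptor, had 0 and 0 bp in KO, against 1891 and 2602 bp in WT. Its H3K4me3 covered 2386 and 1395 bp in KO and 1442 and 1616 bp in WT. Serpine2 had 0 and 0 bp of H3K27me3 in KO against 1688 and 2672 bp in WT, with H3K4me3 at 2288 and 1583 bp in KO and 1335 and 1531 bp in WT, longer in both KO mice. Zfp982 had 0 and 0 bp of H3K27me3 in KO against 2220 and 2037 bp in WT, with H3K4me3 at 1197 and 835 bp in KO and 1063 and 1121 bp in WT. Golph3, a Golgi protein, had 0 and 0 bp in KO and 2237 and 2625 bp in WT, and its H3K4me3 stayed between 608 and 658 bp in KO and between 634 and 669 bp in WT. H3K4me3 was present in both KO libraries in 9 of these 10 regions, and Paqr6, at 186 and 0 bp in KO and 243 and 300 bp in WT, was the exception. The region of Thbs3 is shared with Mtx1, and that of Cuedc1 with Mrps23, whose ends lie within the same 2 kb. Without the limit to gene ends, 7 of the 10 strongest regions with no H3K27me3 peak in KO had no gene end within 2 kb. The strongest of all, at a WT percentile of 81.3, was chr5:23828869-23833134, where H3K27me3 covered 0 and 0 bp in KO against 2746 and 4266 bp in WT. The next were at percentiles of 76.2, 72.5 and 71.1, and all of these lay on chromosome 4, as Zfp982 does.

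**Figure D5:**
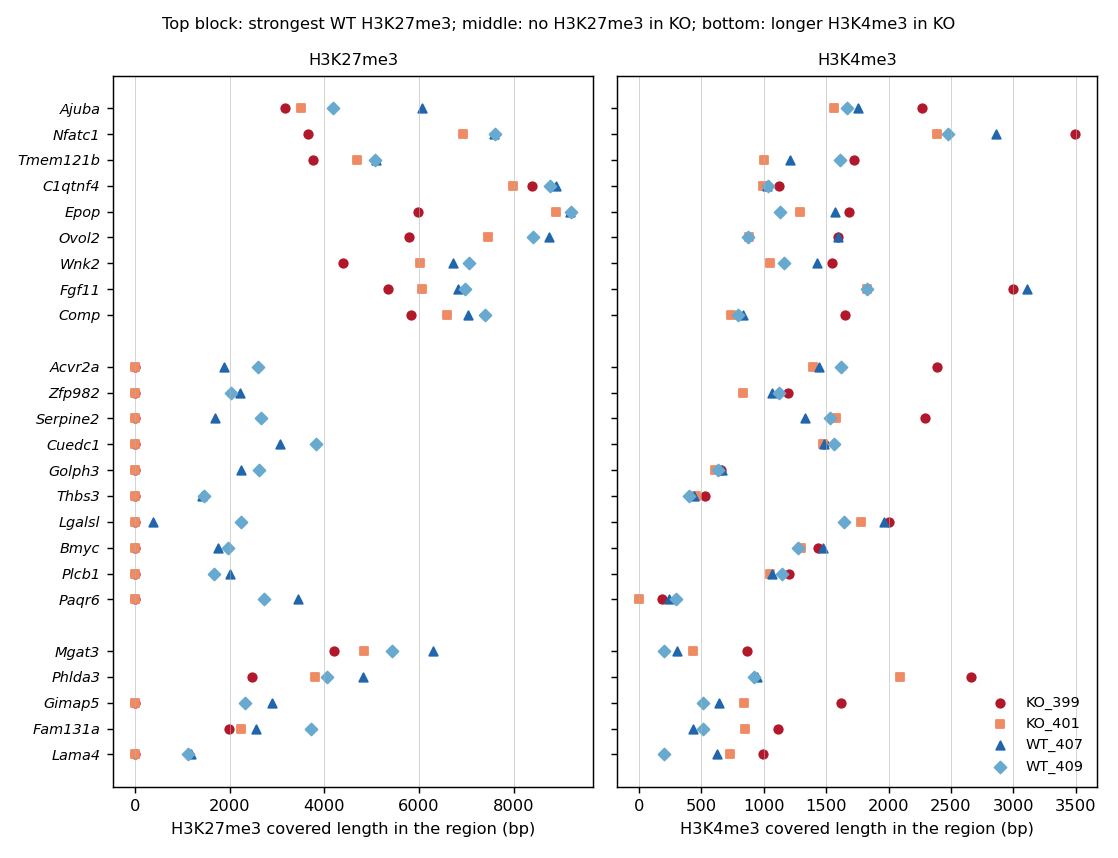
Covered length in bp of H3K27me3 (left) and H3K4me3 (right) in single regions, 1 point for each mouse: 9 of the 10 strongest (top), the 10 strongest near gene ends with no H3K27me3 peak in KO (middle) and 5 with longer H3K4me3 in KO (bottom). In the middle block both KO points lie at 0 bp of H3K27me3, with the KO_401 point drawn over that of KO_399, while H3K4me3 there is above 0 in both KO mice except at Paqr6.

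H3K4me3 was longer in both KO libraries than in either WT library in 341 short bivalent regions (12.3%), beside 12.3% of all H3K27me3 regions with H3K4me3 in both WT libraries, and shorter in 194 (7.01%), beside 6.78%. Most of those background regions are the short bivalent ones. To set them beside promoters without H3K27me3, the H3K4me3 regions of both WT libraries were measured with 2 kb added on each side. Of 2836 that overlapped a short bivalent region, 344 (12.1%) were longer in both KO libraries, beside 20.4% of all 21142 and 21.97% of the 17391 without H3K27me3 in WT. A further 193 (6.81%) were shorter, beside 7.97% of all. The balance depended on the window: without the added 2 kb, 91 (3.21%) were longer, beside 6.56%, and 276 (9.73%) were shorter, beside 11.4%. The mean difference of KO minus WT at the 2836 regions was 49.3 bp with the added 2 kb and -39.8 bp without it with 2 mice each.

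The 6 regions near gene ends with the largest relative gain, chosen for that gain and given as a description, included those of Mgat3, Phlda3, Gimap5, Fam131a and Lama4. Mgat3, a glycosyltransferase, had 869 and 438 bp of H3K4me3 in KO and 306 and 205 bp in WT. Gimap5, a GTPase of lymphocytes next to Gimap1, had 1619 and 842 bp in KO and 640 and 515 bp in WT. Lama4, a laminin chain, had 992 and 727 bp in KO and 628 and 201 bp in WT. At Gimap5 and Lama4 neither KO library had H3K27me3, against 2889 and 2325 bp and 1191 and 1132 bp in WT, whereas Phlda3, with the promoter printed above, had 2467 and 3808 bp in KO and 4829 and 4049 bp in WT. Of the 17 regions at 0 bp of H3K4me3 in both KO libraries, 11 lay near gene ends and tied as the largest relative loss; the 6 taken from this tie, in the order of chromosome names, were D130043K22Rik, Hs6st3, Gpd1, Hpcal4, Serinc2 and Gng8. The WT values of these 6 were small, from 4 and 48 bp at Gng8, a G protein subunit, to 902 and 222 bp at Hs6st3, a heparan sulfate sulfotransferase. Hs6st3 had H3K27me3 over 5299 and 6146 bp in KO and 7117 and 7247 bp in WT.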

How the data were processed

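Peak lists of 8 libraries (H3K27me3 and H3K4me3, 2 KO and 2 WT mice each) were used; the 4 input samples were not analysed here. The submitters' processing notes name MACS2, Bowtie2, Trim Galore, FastQC, deepTools and SAMtools, and the build mm10; versions, parameters and the control of the peak caller are not given in the sources used here. Each library had its own list, so mice were not pooled. In the deposited lists each peak has a whole-number score, the fold is the ratio of the summit pileup to its expected background, and −log10 p and −log10 q are the authors' values per peak. The deposited summit is a position within the peak. They were used only within a list, to rank or filter peaks. Every fold was above 5, a filter that no label records, so covered lengths drop where a broad stretch falls under it.

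From these, covered bases per region and library were counted with Python 3.11.15, numpy 2.4.6 and pandas 2.3.3, and tested on simulated peaks. An exact permutation test of H3K4me3 length was planned, but its p is not given, because WT lists of that mark chose the regions; with 2 mice each (6 labelings) it cannot go below 0.333. The background per position was solved from fold and −log10 p. The labels say littermates, not which samples were processed together, so batches could not be assessed. Genes, start sites and sequences came from RefSeq tables of GRCm38.p6; a gene counted where either end lay within 2 kb.

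The regions and gene lists were chosen with earlier results of these data known. Named regions were the 10 strongest by WT percentile of −log10 q near gene ends, the 10 strongest with no H3K27me3 peak in KO, the 6 largest H3K4me3 gains and losses without overlap of KO and WT, regions at listed genes, and those nearest the length limit. Only the first of these rules was written with the limit to gene ends; it was applied to the next 2 as well, and ties among losses were broken by the order of chromosome names. Listed genes given with values beyond that rule, and Ebf1, Irf4 and Gfi1b for H3K4me3, were picked after their values were seen. The 2 kb added around H3K4me3 regions was also chosen after the data were seen. Alternatives changed the length limit, overlap, merging, fold, list size, definition of a present mark, gene window and mice. A few genes that these rules or lists name are not reported here.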

Additional observations from a re-analysis of the deposited data

How the results depend on the processing

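No paired analysis was possible because KO and WT mice share no replicate number. The number of short bivalent regions was 1795 with a fold of at least 7 and 704 with equal covered length in each list. The share with H3K27me3 in KO (80.6%) was 68.3% at fold 7, 98.7% with equal covered length and 66.2% when at least 50% of the WT bases had to be covered. The count with none in KO (272 of 2767 regions) was 181 of 2316 with 500 bp of H3K4me3 overlap and 108 of 2298 with equal numbers of peaks. It was 1 of 704 with equal covered length and 413 under the 50% rule. Without WT_407 it was 697 of 3446, and without WT_409 it was 449 of 3447. Over the 2767 regions it was 304 without KO_399 and 771 without KO_401, each for the KO library left. Covered H3K27me3, KO minus WT (-1393 bp), was -455 bp for regions chosen on the KO lists. Covered H3K4me3, KO minus WT, turned to -75.2 bp with equal covered length and was between -106 and 177 bp without 1 mouse, negative without WT_409 (-25.6 bp) or KO_399. The difference between bivalent regions and short regions without H3K4me3 (24.5 points) was 26.7 with 500 bp of overlap, 20.4 with gaps of 1000 bp merged, 7.90 at fold 7, 10.05 with equal numbers of peaks, 0.493 with equal covered length, 13.0 within length bins and -0.600 within 10 classes of WT strength, and 23.1 to 45.8 without 1 mouse, the highest without WT_409. The held-out difference (-16.5 points) was 17.7 with equal covered length, -7.82 with equal numbers of peaks, -26.5 at fold 7, -27.4 under the 50% rule and -24.6 to -8.36 without 1 KO mouse. Regions near a gene end (78.8%) were 75.3% with a limit of 5000 bp, 81.4% with 500 bp of overlap, 82.8% at fold 7, 81.2% with equal numbers, 88.8% with equal covered length, and 76.8% and 82.5% for windows of 1 and 5 kb. H3K4me3 regions longer in both KO libraries numbered 344 with and 91 without the added 2 kb. The cause of these shifts was not tested. Equal covered length leaves few, long WT peaks. Of 92 recomputed values, 5 changed sign and 28 moved beyond the tolerance set for their kind. Depth is unknown, and weak peaks under a fold of 5 cannot be seen.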
